A study of Mus musculus with 48 samples.

Results

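The 10 genes described here encode receptors for extracellular nucleotides and adenosine and enzymes that set the levels of these ligands. They are P2rx4, P2rx7, P2ry1, P2ry2, P2ry6, Adora1, Adora2a, Entpd1, Nt5e and Adk, taken by name from a count table of 55357 genes, and all 10 passed the filter on low counts that left 21390 genes for testing. In the epileptogenic zone (EZ) of kainate-injected mice, all 5 of the P2 receptor genes and Entpd1 were upregulated at days 3 and 7. Adora1 was downregulated at both times, where 24.7% and 32.5% of all tested genes were called in either direction. The day 3 calls of Entpd1 and P2ry1 were lost when single mice were left out, as given below. In the peri-ictal zone (PIZ), edgeR called P2ry6 alone among the 10, at day 3, while DESeq2 called 2 and limma-voom 6 of them at that time, against 8.69%, 9.51% and 13% of all genes for the 3 tools.

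ATP and other nucleotides leave neurons and glia through vesicles and channels and after injury. They open P2X receptors, which are cation channels, and activate P2Y receptors, which are coupled to G proteins. On the cell surface, ectoenzymes strip phosphates from ATP until adenosine remains, and adenosine acts on its own G protein-coupled receptors, of which the A1 type (Adora1) dampens transmitter release and is known as a brake on seizures. Adenosine kinase (Adk), an enzyme of astrocytes in the adult brain, removes adenosine. Microglia, the resident macrophages of the brain, carry many of the P2 receptors and the ectoenzyme CD39 (Entpd1).

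The study used adult C57BL/6J mice, given in its methods as 8 to 10 weeks old, which received 1 injection of saline or of kainate, an agonist of glutamate receptors, into the hippocampus of 1 side. Dorsal dentate gyri were dissected 3, 7 or 14 days later from the injected side (EZ) and from the opposite side (PIZ), which gave 48 poly(A) RNA libraries from 24 mice in 12 groups of 4 mice, each of 2 males and 2 females. All mice had isoflurane anesthesia and food with an analgesic, each kainate mouse had at least 1 observed behavioral seizure (without EEG) and no saline mouse did, so saline mice carried the needle track and the anesthesia but no observed seizure. Kainate was injected on 1 side only, and the PIZ of a kainate mouse was exposed to the seizures but not to the injection. Both libraries of a mouse share the animal, and mice are named below by the numbers in the sample labels.

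Library totals ran from 17762656 to 25712975 counts. Levels are given as CPM, which are counts scaled to the library's total multiplied by its TMM factor, an adjustment for composition. The 10 listed granule neuron markers of the dentate gyrus, such as Prox1 and Stxbp6, were detected in every group. In the EZ at day 3 they summed to 817.5 to 1146 CPM after kainate and 1259 to 1522 CPM after saline. In the EZ at days 3 and 7 after kainate, the summed level of 10 neuronal markers was 3694 to 6447 and 2743 to 7816 CPM, against 9882 to 11220 and 10140 to 11350 CPM after saline. One library stood apart at day 14: the EZ of kainate mouse 27 had 4372 CPM over 11 microglial markers, while the other 3 kainate mice had 619.5 to 971.6 CPM. Each kainate effect in the EZ at day 14 is therefore given with and without mouse 27.

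Several of the genes are neighbors in the genome. P2rx7 and P2rx4 lie 15.1 kb apart on chromosome 5 and P2ry2 and P2ry6 lie 16.5 kb apart on chromosome 7, each pair on 1 strand with 0 coding genes in between. In GRCm39, P2rx7 spans chr5:122781942-122830400 and P2rx4 chr5:122845541-122867803 on the plus strand, and P2ry6 spans chr7:100585308-100624173 and P2ry2 chr7:100640649-100663957 on the minus strand. Of the other genes, Adora1 lies at chr1:134126948-134163579 on the minus strand, and P2ry1 (chr3:60910159-60916403), Adora2a (chr10:75152560-75170628), Nt5e (chr9:88209089-88254146), Adk (chr14:21102618-21499916) and Entpd1 (chr19:40600810-40731585) lie on the plus strand. The 250 bases upstream of the canonical transcript's start are printed here from that genome for P2rx4, P2rx7, P2ry6, Entpd1 and Adora1. The first 4 were taken because their kainate effect differed between the sides at day 7, and Adora1 because it fell. For P2ry6, Entpd1 and Adora1 this start lies inside the span given above, at 100613660, 40648214 and 134163181. Capitals mark a match, on either strand, to GAGGAA (the core bound by PU.1, a factor of myeloid cells), TGANTCA (AP-1), TGACGTCA (CRE) or TTCNNNGAA (STAT).
P2rx4 (chr5:122845291-122845540, plus strand): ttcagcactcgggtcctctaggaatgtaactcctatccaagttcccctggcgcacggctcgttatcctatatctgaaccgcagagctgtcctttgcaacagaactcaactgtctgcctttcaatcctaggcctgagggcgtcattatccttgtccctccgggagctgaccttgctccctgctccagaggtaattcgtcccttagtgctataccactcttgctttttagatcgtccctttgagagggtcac
P2rx7 (chr5:122781692-122781941, plus strand): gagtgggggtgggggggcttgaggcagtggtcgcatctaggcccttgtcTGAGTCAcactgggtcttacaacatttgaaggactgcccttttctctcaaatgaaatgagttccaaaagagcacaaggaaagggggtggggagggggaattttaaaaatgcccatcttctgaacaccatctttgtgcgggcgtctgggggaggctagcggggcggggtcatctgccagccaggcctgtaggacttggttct
P2ry6 (chr7:100613661-100613910, minus strand): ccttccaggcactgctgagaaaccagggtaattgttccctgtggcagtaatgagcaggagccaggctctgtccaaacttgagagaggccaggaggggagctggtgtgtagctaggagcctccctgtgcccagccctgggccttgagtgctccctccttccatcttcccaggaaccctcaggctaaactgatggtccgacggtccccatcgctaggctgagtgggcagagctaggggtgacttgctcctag
Entpd1 (chr19:40647964-40648213, plus strand): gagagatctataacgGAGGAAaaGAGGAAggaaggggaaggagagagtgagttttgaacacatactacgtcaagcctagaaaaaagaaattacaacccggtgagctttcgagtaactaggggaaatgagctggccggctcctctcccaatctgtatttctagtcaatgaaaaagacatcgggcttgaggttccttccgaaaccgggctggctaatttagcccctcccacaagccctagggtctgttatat
Adora1 (chr1:134163182-134163431, minus strand): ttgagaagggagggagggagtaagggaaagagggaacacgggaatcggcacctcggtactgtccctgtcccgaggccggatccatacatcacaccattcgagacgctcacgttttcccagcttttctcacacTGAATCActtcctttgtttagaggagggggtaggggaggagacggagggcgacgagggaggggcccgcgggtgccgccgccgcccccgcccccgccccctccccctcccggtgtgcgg

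In these windows GAGGAA was found in Entpd1 alone among the 10 genes, with 2 matches 235 and 227 bases upstream of the start, while 23.4% of 15531 promoters of tested coding genes held it. TGANTCA, where N is any base, was found in P2rx7, 201 bases upstream, and in Adora1, 118 bases upstream, against 4.68% of promoters. The matched bases were TGAGTCA in P2rx7 and TGAATCA in Adora1. TTCNNNGAA was found in Adora2a, 123 bases upstream, against 6.58%, and TGACGTCA in 0 of the 10 genes, against 1.89%. P2rx4 and P2ry6 held none of the 4 motifs in this window.

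Levels in the saline mice differed widely between the genes when compared per length, as RPKM, which is CPM divided by the exon length in kilobases. Adora1 was by far the most abundant, at 48.4 ± 4.88 RPKM (SD, n = 24 libraries from 12 mice), followed by Adk at 4.26 ± 0.382 RPKM and Entpd1 at 2.16 ± 0.407 RPKM. P2rx7, at 1.18 ± 0.164 RPKM, and P2rx4, at 1.14 ± 0.140 RPKM, did not differ beyond their spread. Nt5e at 0.484 ± 0.0773 RPKM, P2ry6 at 0.421 ± 0.165 RPKM, P2ry1 at 0.386 ± 0.0757 RPKM and Adora2a at 0.267 ± 0.0378 RPKM each overlapped their neighbor in this order. P2ry2 was the lowest, at 0.0653 ± 0.0243 RPKM, and its counts per library over the whole series ran from 5 to 141, so that its levels carry the most counting error.

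Each comparison was tested with edgeR's quasi-likelihood test over all 21390 genes. A gene was called where the Benjamini-Hochberg adjusted p was under 0.01 and the fold change over 1.5. The ± beside a log2 value is a standard error from this fit. It uses the gene's spread over all 12 groups and is not the spread of the compared groups alone. In the EZ at day 3, 6 of the 10 genes were called higher and 1 lower after kainate, where 16.1% of all tested genes were called higher and 8.61% lower (24.7% in all). At day 7 the same 6 genes were called higher and the same 1 lower, against 20.6% and 11.9% of all genes (32.5% in all). At day 14, 1 of the 10 was called, a rise, against 2.32% of all genes called higher and 2.36% in all. The EZ groups did not overlap for 5 genes higher and 1 lower at day 3 (23.9% and 18.5% of all genes), for 7 higher and 1 lower at day 7 (23.7% and 20.1%) and for 3 higher at day 14 (4.58%). Over the 10 genes, log2 fold changes in the EZ had medians of 1.02, 1.76 and 0.71 in the order of the days, beside 0.03, 0.01 and 0.00 over all tested genes. The day 14 median was 0.15 without mouse 27.

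**Figure D1:**
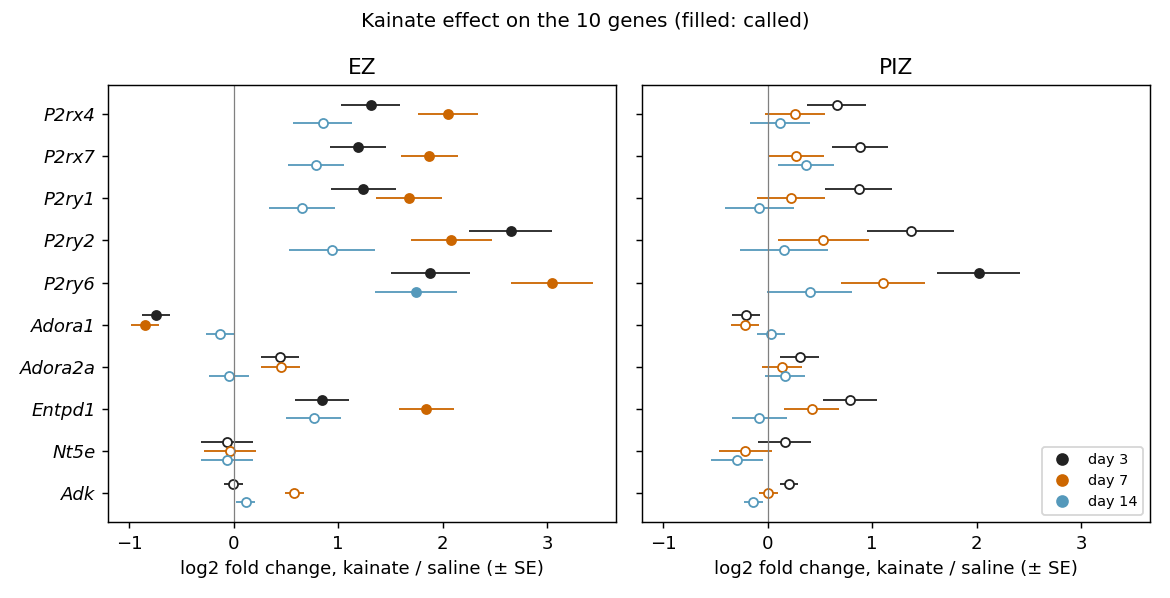
Log2 fold change of kainate over saline, ± SE, for the 10 genes in the EZ (left) and the PIZ (right), with 1 point per day and filled points for called genes. In the EZ the P2 receptor genes and Entpd1 lie to the right of 0 at days 3 and 7 and Adora1 to the left, while in the PIZ P2ry6 at day 3 is the only filled point.

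In the PIZ at day 3, 1 of the 10 genes was called, a rise, against 7.12% of all tested genes called higher and 8.69% in all. This count depended on the tool, since DESeq2 called 2 and limma-voom 6, and edgeR called 5 with the compared groups alone, against 9.51%, 13% and 11.8% of all genes. The kainate and saline groups did not overlap for 6 of the 10 genes, all higher after kainate, where 17.1% of all genes had groups apart in that direction. At PIZ day 7 edgeR called 0 of the 10 genes (0.201% of all genes), with 1 gene at an unadjusted p under 0.05, DESeq2 called 0 (0.898%) and limma-voom called 1 (3.84%), and 1 gene had groups apart and higher (7.63% of all genes). At PIZ day 14 edgeR, DESeq2 and limma-voom each called 0 of the 10 (0.014%, 0.0166% and 0.449% of all genes). By edgeR 0 had an unadjusted p under 0.05, and all groups overlapped.

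P2rx4, an ATP-gated channel that microglia raise after injury, rose in the EZ. At day 3 it was at 16.5, 17.3, 26.1 and 37.1 CPM in the 4 kainate mice and at 8.43, 8.95, 9.35 and 12.3 CPM in the 4 saline mice, a log2 fold change of 1.31 ± 0.28 (adjusted p = 0.000224). EZ levels at day 7 were 18.4, 25.5, 52.8 and 65.3 CPM after kainate and 8.95, 9.29, 10.2 and 10.6 CPM after saline, a difference of 2.05 ± 0.29 (adjusted p = 2.39e-07). The groups were apart at both times, and mice 35 and 21 held the highest day 7 levels. On day 14 the EZ was at 9.33, 10.7, 11.2 and 30.1 CPM after kainate, the last value from mouse 27, and at 7.83, 8.37, 8.64 and 9.199 CPM after saline. The groups were still apart, but the difference of 0.85 ± 0.28 (adjusted p = 0.0723) did not pass and was 0.29 ± 0.26 without mouse 27 (adjusted p = 1). In the PIZ, P2rx4 was at 11.7, 12.7, 13.4 and 14.6 CPM after kainate and 7.67, 7.798, 8.25 and 9.43 CPM after saline at day 3, which were apart, with a log2 difference of 0.66 ± 0.28 (adjusted p = 0.0854). PIZ levels at day 7 were 8.103, 9.07, 11.99 and 12 CPM after kainate and 8.46, 8.47, 8.62 and 8.77 CPM after saline. Those at day 14 were 8.37, 9.11, 9.24 and 9.46 and 7.001, 7.92, 9.05 and 9.33 CPM in the same order, and the groups overlapped at both of these times.

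P2rx7, a channel that needs high ATP and is known for triggering the release of interleukin 1 beta from microglia, followed a similar course. The EZ at day 3 had 22.2, 24.8, 33.95 and 43.7 CPM after kainate and 11.5, 12.03, 14.9 and 16.2 CPM after saline, a log2 fold change of 1.19 ± 0.26 (adjusted p = 0.00035). For day 7 the values were 17.1, 30.5, 54.4 and 65.1 CPM after kainate and 10.3, 10.99, 11.3 and 13.1 CPM after saline, a log2 fold change of 1.87 ± 0.27 (adjusted p = 4.26e-07). The groups did not overlap at either time, and the kainate mice spread widely at day 7. EZ levels at day 14 were 12.5, 14.1, 14.2 and 36.4 CPM after kainate, the highest again from mouse 27, and 10.1, 10.5, 12.1 and 12.2 CPM after saline. That difference of 0.79 ± 0.27 (adjusted p = 0.0811) became 0.28 ± 0.24 without mouse 27 (adjusted p = 1). In the PIZ the levels at day 3 were 16.7, 19.7, 21.4 and 21.7 CPM after kainate and 9.49, 9.62, 10.9 and 13 CPM after saline, apart but short of the threshold at 0.88 ± 0.27 (adjusted p = 0.0142), a value that DESeq2 (adjusted p = 0.00857) and limma-voom (adjusted p = 2.12e-05) called. Day 7 brought 11.2, 14.7, 14.8 and 16.3 CPM after kainate and 11.03, 12.05, 12.1 and 12.2 CPM after saline. By day 14 there were 10.6, 12.9, 14.3 and 15.6 and 10.1, 10.3, 10.3 and 10.6 CPM, and the groups overlapped on both days.

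P2ry1 encodes a receptor for ADP found on neurons and astrocytes. In the EZ at day 3 it was at 2.19, 4.93, 5.32 and 7.88 CPM after kainate and 1.94, 1.98, 2.24 and 2.44 CPM after saline, a log2 fold change of 1.24 ± 0.31 (adjusted p = 0.00121). Kainate mouse 44 lay within the saline range, and the call was lost without mouse 38 (0.95, adjusted p = 0.016). On day 7 the EZ had 3.78, 5.41, 7.01 and 7.02 CPM after kainate and 1.53, 1.6, 1.61 and 2.495 CPM after saline, with the groups apart and a log2 fold change of 1.68 ± 0.32 (adjusted p = 2.76e-05). Day 14 EZ levels were 1.92, 2.304, 2.34 and 5.801 CPM after kainate and 1.72, 1.83, 2.13 and 2.198 CPM after saline, which overlapped (0.65 ± 0.32, adjusted p = 0.271, and 0.15 without mouse 27, adjusted p = 1). In the PIZ the day 3 levels of 2.598, 2.703, 2.72 and 4.08 CPM after kainate all exceeded the 0.875, 1.82, 1.86 and 2.04 CPM after saline, and the difference of 0.87 ± 0.32 (adjusted p = 0.0438) did not pass. PIZ values at day 7 were 1.49, 1.68, 2.17 and 2.71 CPM after kainate and 1.53, 1.71, 1.76 and 1.88 CPM after saline. Those at day 14 were 1.13, 1.37, 1.58 and 2.96 and 1.37, 1.68, 1.98 and 2.38 CPM, without separation of the groups on either day.

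P2ry2, a receptor for ATP and UTP, was the lowest gene in saline mice and had the largest fold change of the 10 genes in the EZ at day 3. Its EZ levels were 2.72, 2.905, 3.92 and 5.203 CPM after kainate and 0.244, 0.5297, 0.599 and 0.945 CPM after saline, a 6.28-fold difference (log2 2.65 ± 0.40, adjusted p = 2.33e-06). At day 7 they were 1.84, 2.11, 4.15 and 5.53 CPM after kainate and 0.516, 0.782, 0.919 and 0.989 CPM after saline, a log2 fold change of 2.08 ± 0.39 (adjusted p = 2.39e-05). The lowest kainate mouse was above the highest saline mouse at both times. On day 14 the EZ was at 0.4496, 0.907, 1.003 and 2.76 CPM after kainate and 0.394, 0.4496, 0.742 and 1.09 CPM after saline, and mouse 27 alone was above the saline range (0.94 ± 0.41, adjusted p = 0.206, and 0.25 without it, adjusted p = 1). The PIZ at day 3 held 1.14, 1.39, 1.495 and 1.56 CPM after kainate and 0.364, 0.464, 0.6501 and 0.6803 CPM after saline, with groups apart and 1.37 ± 0.42 (adjusted p = 0.0148). For PIZ day 7 the levels were 0.634, 0.72, 0.919 and 1.08 CPM after kainate and 0.312, 0.493, 0.743 and 0.756 CPM after saline. PIZ day 14 gave 0.683, 0.7703, 0.812 and 1.16 and 0.453, 0.636, 0.825 and 1.13 CPM, and the groups overlapped on both days.

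P2ry6, a receptor for UDP that prompts phagocytosis by microglia, had the largest fold change of the 10 genes in the EZ at day 7. The EZ held 11.7, 13.7, 16.4 and 24.5 CPM after kainate and 3.23, 3.88, 4.63 and 6.21 CPM after saline at day 3, a log2 fold change of 1.88 ± 0.38 (adjusted p = 9.4e-05). At day 7 it held 12.1, 14.04, 35.3 and 48.4 CPM after kainate and 2.91, 2.96, 3.58 and 3.82 CPM after saline, an 8.28-fold difference (log2 3.05 ± 0.39, adjusted p = 7.04e-08). Kainate mice 23 and 26 were near the level of day 3, mice 35 and 21 were well above it, and the kainate and saline groups were apart at both times. At day 14 the EZ levels of 3.43, 3.99, 5.39 and 20.1 CPM after kainate lay above the 2.32, 2.35, 2.49 and 2.66 CPM after saline. The call of 1.75 ± 0.39 (adjusted p = 0.00461) rested on mouse 27, without which the value was 0.80 ± 0.33 (adjusted p = 0.815), and it was lost as well without saline mouse 24, 28, 31 or 39. P2ry6 was also called in the PIZ at day 3, with 6.87, 7.11, 9.21 and 9.95 CPM after kainate and 1.67, 2.14, 2.14 and 2.21 CPM after saline, groups apart and a log2 fold change of 2.02 ± 0.40 (adjusted p = 0.000292). PIZ day 7 levels of 3.21, 3.97, 5.52 and 6.18 CPM after kainate were above the 1.61, 1.75, 2.44 and 2.97 CPM after saline in every mouse, a difference of 1.1 ± 0.40 (adjusted p = 0.163) that limma-voom called (adjusted p = 0.00114). At day 14 the PIZ values of 1.995, 2.43, 2.72 and 3.25 and 1.86, 1.86, 1.98 and 2.17 CPM overlapped.

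**Figure D2:**
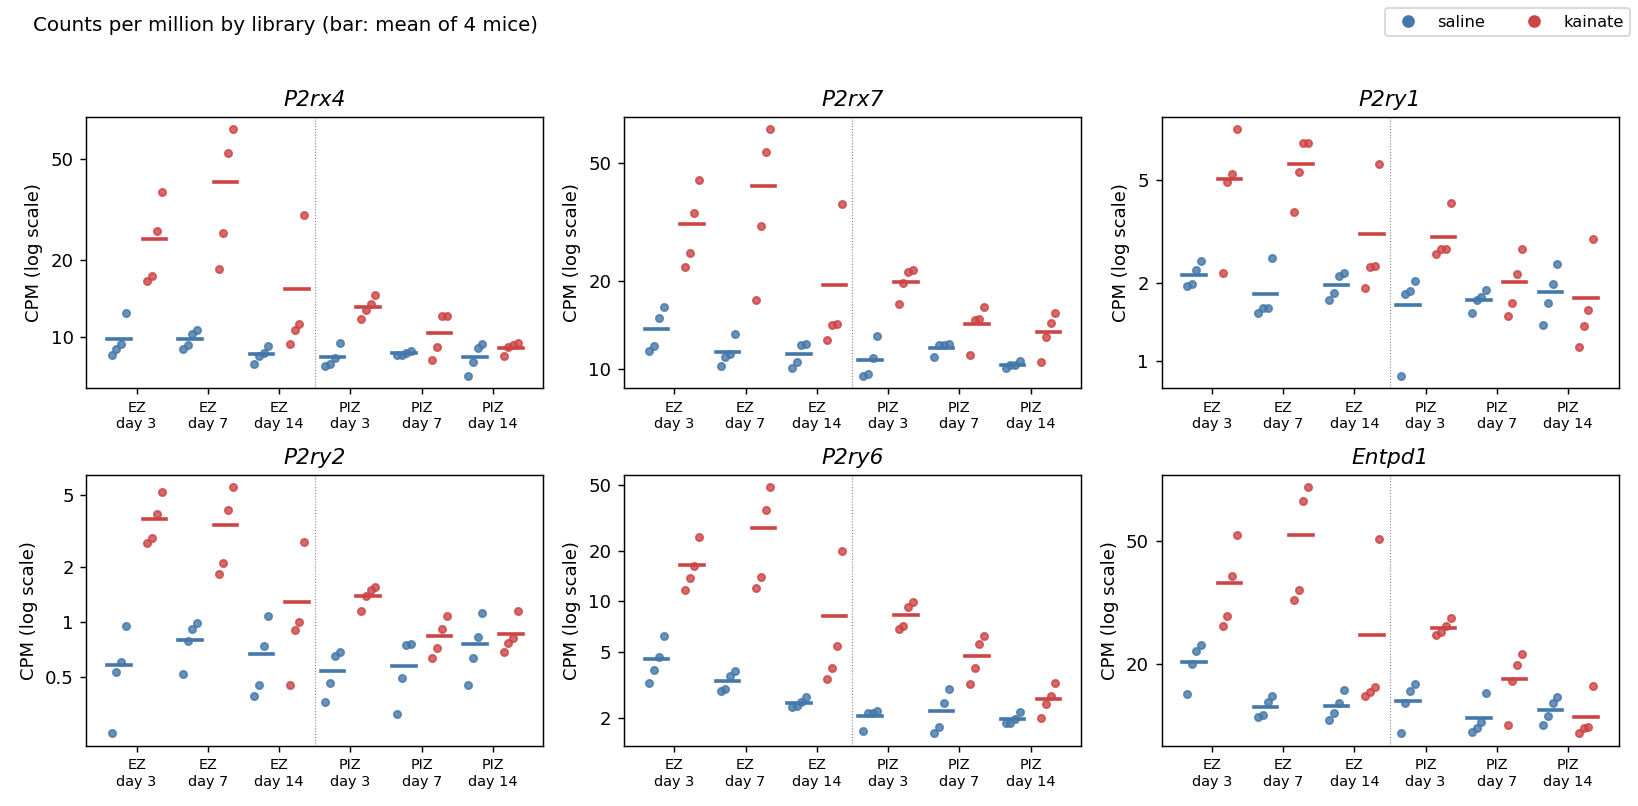
CPM on a log scale in each of the 48 libraries for the 5 P2 receptor genes and Entpd1, by side and day, with saline in blue, kainate in red and a bar at the mean of 4 mice. Kainate libraries of the EZ sit above the saline libraries at days 3 and 7 (1 P2ry1 library at day 3 excepted), and at day 14 a single kainate library, mouse 27, stands above the other 3.

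Adora1 went the other way. In the EZ at day 3 it was at 149, 167, 217 and 219 CPM after kainate and 289, 293, 327 and 352 CPM after saline, a log2 fold change of -0.75 ± 0.13 (adjusted p = 2.43e-05). At day 7 it was at 145, 168, 186 and 205 CPM after kainate and 268, 312, 332 and 356 CPM after saline, a log2 fold change of -0.85 ± 0.13 (adjusted p = 1.96e-06). Every kainate mouse was below every saline mouse at both times, and the mean fell from 315 to 188 CPM and from 317 to 176 CPM. At day 14 the EZ levels were 206, 246, 285 and 304 CPM after kainate, the lowest from mouse 27, and 255, 293, 295 and 296 CPM after saline, which overlapped (-0.13 ± 0.13, adjusted p = 0.64, and -0.03 without mouse 27, adjusted p = 1). PIZ levels at day 3 were 218, 286, 288 and 343 CPM after kainate and 272, 319, 347 and 373 CPM after saline (-0.21 ± 0.13, adjusted p = 0.266). Those of day 7 were 221, 265, 301 and 303 CPM after kainate and 271, 303, 339 and 353 CPM after saline (-0.22 ± 0.13, adjusted p = 0.463). The PIZ at day 14 showed 279.6, 307, 314 and 326 and 293, 296, 302 and 313 CPM, and the groups overlapped at all 3 times in the PIZ. The 3′ part of Adora1 overlaps the gene Mybph on the opposite strand, and the authors counted reads by strand.

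Adora2a encodes a second adenosine receptor, which is abundant in striatal neurons and sparse in the dentate gyrus. In the EZ it was at 1.52, 1.84, 1.995 and 2.37 CPM after kainate and 1.104, 1.25, 1.44 and 1.9 CPM after saline at day 3, with overlapping groups and 0.44 ± 0.19 (adjusted p = 0.0469). At day 7 the EZ values were 1.52, 1.53, 2.43 and 2.49 CPM after kainate and 1.27, 1.28, 1.55 and 1.74 CPM after saline (0.45 ± 0.19, adjusted p = 0.0377). Mice 21 and 35 were above the saline range and the other 2 kainate mice within it. Day 14 gave 1.13, 1.504, 1.57 and 1.66 CPM after kainate and 1.43, 1.45, 1.54 and 1.62 CPM after saline (-0.04 ± 0.19, adjusted p = 0.93, and 0.06 without mouse 27, adjusted p = 1). In the PIZ, kainate and saline libraries together spanned 1.04 to 1.92 CPM, the groups overlapped at each day, and the log2 fold changes were 0.3 ± 0.19, 0.13 ± 0.19 and 0.17 ± 0.19 at days 3, 7 and 14.

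Among the enzymes, Entpd1 (CD39), which converts ATP and ADP to AMP, rose with the P2 receptors. At day 3 the EZ had 26.6, 28.6, 38.4 and 52.1 CPM after kainate and 16.02, 20.1, 22.1 and 23.1 CPM after saline, which did not overlap, a log2 fold change of 0.84 ± 0.26 (adjusted p = 0.00699). This call was lost when any of mice 18, 29, 37, 38, 41 or 42 was left out, with the value between 0.62 and 0.97 over the 8 omissions. On day 7 the EZ had 32.3, 34.7, 67.2 and 74.3 CPM after kainate and 13.5, 13.7, 15.1 and 15.8 CPM after saline, well apart, a log2 fold change of 1.84 ± 0.27 (adjusted p = 4.23e-07). At day 14 it was 15.8, 16.3, 16.8 and 50.5 CPM after kainate and 13.2, 13.9, 15.03 and 16.5 CPM after saline, with mouse 27 far above and mouse 40 just above the saline range (0.77 ± 0.26, adjusted p = 0.0841, and 0.16 without it, adjusted p = 1). The PIZ at day 3 had 24.7, 25.4, 26.5 and 28.1 CPM after kainate and 12.02, 15.04, 16.4 and 17.3 CPM after saline, with groups apart and 0.79 ± 0.26 (adjusted p = 0.0254). At day 7 the PIZ had 12.7, 17.7, 19.9 and 21.6 CPM after kainate and 12.1, 12.5, 13.04 and 16.1 CPM after saline. At day 14 it had 11.96, 12.5, 12.6 and 16.96 and 12.8, 13.6, 15.01 and 15.7 CPM, and the groups overlapped on both days. Within the span of Entpd1 lie 2 processed pseudogenes and 1 long noncoding RNA on the same strand, between which and Entpd1 reads could be split.

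Nt5e (CD73), which makes adenosine from AMP in the step after CD39, was called in none of the 16 comparisons. In the EZ its levels were 2.65, 3.18, 4.78 and 5.01 CPM after kainate and 3.602, 4.09, 4.196 and 4.46 CPM after saline at day 3 (-0.06 ± 0.25, adjusted p = 0.854). At day 7 they were 3.704, 4.03, 4.65 and 5.49 CPM after kainate and 3.95, 4.23, 4.57 and 5.61 CPM after saline (-0.04 ± 0.25, adjusted p = 0.911). At day 14 the 2 lowest and the highest of the 8 EZ values, 2.72, 3.03, 4.55 and 7.75 CPM after kainate and 4.18, 4.39, 4.75 and 5.595 CPM after saline, were all from kainate mice, and the difference was -0.06 ± 0.25, or -0.45 ± 0.23 without mouse 27 (adjusted p = 1). In the PIZ, Nt5e spanned 2.20 to 5.15 CPM over kainate and saline libraries, with overlapping groups and log2 fold changes of 0.16 ± 0.25, -0.22 ± 0.25 and -0.29 ± 0.25 at days 3, 7 and 14.

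Adk, described above, was alike in both groups on day 3, with 50.9, 54.2, 55.2 and 61.5 CPM after kainate and 50.9, 52.2, 58.6 and 60.7 CPM after saline in the EZ (-0.00 ± 0.09, adjusted p = 0.98). At day 7 the EZ levels of 62.7, 69.04, 71.3 and 74.5 CPM after kainate were all above the 41.2, 45.8, 47.2 and 51.5 CPM after saline. The log2 fold change was 0.58 ± 0.09 (adjusted p = 1.52e-06), just under the fold threshold, and it passed that threshold without scaling for composition (0.66), by limma-voom (0.62) and without mouse 26, 33 or 89. On day 14 the EZ held 43.3, 47.7, 48.6 and 64.2 CPM after kainate, the highest from mouse 27, and 44.1, 47.3, 47.9 and 48.9 CPM after saline (0.12 ± 0.09, adjusted p = 0.529, and -0.02 without mouse 27). PIZ levels of Adk spanned 40.6 to 68.0 CPM, the groups overlapped on each day, and the log2 fold changes were 0.2 ± 0.09, 0.01 ± 0.09 and -0.14 ± 0.09 at days 3, 7 and 14.

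**Figure D3:**
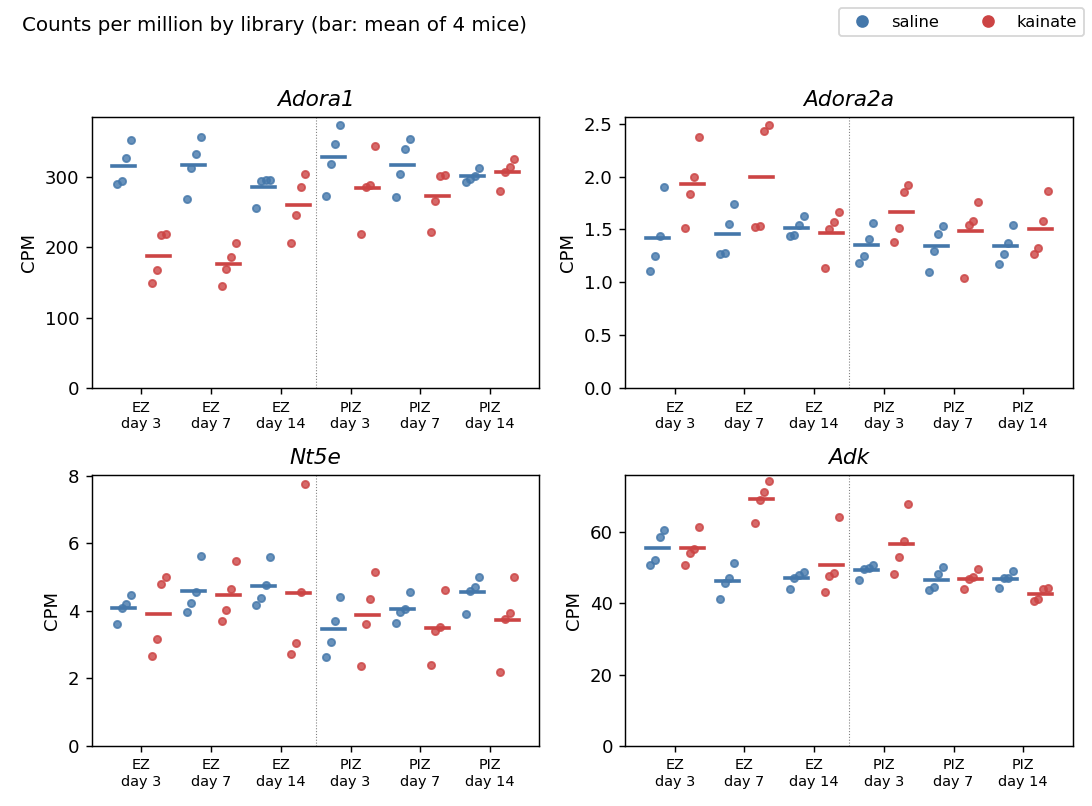
CPM on a linear scale from 0 in each of the 48 libraries for Adora1, Adora2a, Nt5e and Adk, by side and day, with saline in blue, kainate in red and a bar at the mean of 4 mice. Adora1 is lower after kainate in the EZ at days 3 and 7, Adk is higher there at day 7, and the groups of Nt5e overlap throughout.

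The kainate effects of the sides were then compared directly, as the EZ effect minus the PIZ effect. At day 7, 4 of the 10 genes were called, all with a larger rise in the EZ, where 7% of all tested genes were called in that direction and 9.89% in either. The log2 differences were 1.79 ± 0.40 (adjusted p = 0.00273) for P2rx4, 1.61 ± 0.38 (adjusted p = 0.00358) for P2rx7, 1.95 ± 0.55 (adjusted p = 0.00936) for P2ry6 and 1.42 ± 0.37 (adjusted p = 0.006) for Entpd1. P2ry1 (1.45 ± 0.46, adjusted p = 0.0172), P2ry2 (1.55 ± 0.59, adjusted p = 0.0457) and Adora1 (-0.63 ± 0.19, adjusted p = 0.0131) did not pass. Adk (0.57 ± 0.13, adjusted p = 0.00273) missed the fold threshold alone and was called without mouse 26 or 33. Both sides come from the same mice, and with the mouse as a replicate block 4 genes were called again, but P2ry1 passed (1.46, adjusted p = 0.00445) and P2ry6 did not (1.71, adjusted p = 0.0162). Leaving out mouse 20, 21, 35 or 89 left 0 of the 10 called, and leaving out mouse 34 left P2rx4 alone. Without mouse 33, P2rx4 kept its call and Adk gained one. The share of all genes called fell from 9.89% to 0.686%, 0.00463%, 0.869%, 1.02%, 3.01% and 3.68% in that order. The differences of P2rx4, P2rx7, P2ry6 and Entpd1 stayed between 1.07 and 2.33 over all omissions.

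At day 3 and at day 14, edgeR, DESeq2 and limma-voom each called 0 of the 10 genes for a difference between the sides. By edgeR, 2 genes had an unadjusted p under 0.05 each time. Over all genes these tools called 0.0655%, 0.473% and 8.78% at day 3, and 0%, 0.00475% and 0% at day 14. P2ry6 at day 3 was called on both sides, and the difference of the effects was -0.13 ± 0.53 (adjusted p = 0.915). Its kainate levels in the EZ, from 11.7 CPM, were nonetheless all above those in the PIZ, up to 9.95 CPM, and its saline levels in the EZ were 2.20-fold those in the PIZ, with groups apart but no call. The microglial markers of these saline mice summed to 639.1 to 1145 CPM in the EZ and 366.2 to 499.3 CPM in the PIZ, and their part in this was not tested.

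The kainate effect was also compared between days. From day 3 to day 7 in the EZ, edgeR called 0 of the 10 (0.145% of all genes), with 3 at an unadjusted p under 0.05, while DESeq2 called 1 and limma-voom 3 (0.524% and 5.73% of all genes). The largest of these differences were 1.17 ± 0.52 (adjusted p = 0.356) for P2ry6 and 1.0 ± 0.37 (adjusted p = 0.223) for Entpd1. Adk had the smallest adjusted p by edgeR, 0.0187 at 0.58 ± 0.13, and was called without mouse 26. Between day 7 and day 14 edgeR again called 0 of the 10 (0.271% of all genes), with 7 at an unadjusted p under 0.05, DESeq2 called 1 and limma-voom, which weights libraries by quality, called 8, against 5.6% and 29.5% of all genes. Without mouse 27, edgeR called 8 of the 10 genes and 18.8% of all genes, an increase over the whole table. P2rx4, for example, fell by 1.20 on the log2 scale with all mice (adjusted p = 0.0381) and by 1.77 without mouse 27 (adjusted p = 0.000183), and the effect on Adora1 moved up by 0.72 (adjusted p = 0.0181) or 0.81 (adjusted p = 0.00108). Leaving out mouse 23 gave 3 calls (10.7% of all genes) and leaving out mouse 26 gave 1 (4.57%). In the PIZ, edgeR, DESeq2 and limma-voom each called 0 of the 10 for either step between days, with 0 at an unadjusted p under 0.05 by edgeR. Over all genes these tools called 0.0234%, 0.134% and 0.659% for the first step, and 0%, 0.00237% and 0.014% for the second.

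Saline mice served as the test of the injection itself. The injected and opposite sides differed in 0 of the 10 genes at each day by edgeR, DESeq2 and limma-voom. At day 3 these tools called 0.0281%, 0.125% and 0.463% of all genes. At days 7 and 14 edgeR and limma-voom called 0%, and DESeq2 0.00237% and 0%. The 1 gene with an unadjusted p under 0.05 was P2ry6 at day 3, at 3.23, 3.88, 4.63 and 6.21 CPM in the EZ and 1.67, 2.14, 2.14 and 2.21 CPM in the PIZ. These groups were apart, and the log2 difference was 1.13 ± 0.40 (adjusted p = 0.554). Groups were apart and higher in the EZ for 2 genes at day 3 (P2ry6 and Adk, against 5.16% of all genes), 1 at day 7 (P2rx4, 2.09%) and 1 at day 14 (P2ry6, 2.16%).

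The other genes of nucleotide and adenosine signaling were taken from a list of 42, of which 36 were tested. In the EZ, 14 of the 36 were called higher and 2 lower at day 3, 19 higher and 5 lower at day 7, and 0 at day 14 by edgeR. For day 14, 14 of the 36 had an unadjusted p under 0.05, 5 were called at an adjusted p under 0.05, DESeq2 called 2 and limma-voom 0, and edgeR called 3 without mouse 14, 4 without mouse 36, 4 without mouse 40 and 0 without mouse 27. The shares of all genes were 4.82% at an adjusted p under 0.05, 3.38% by DESeq2, 0.271% by limma-voom and 3.85%, 4.11%, 3.65% and 0.0323% for the omissions in that order. In the PIZ, edgeR called 9 higher at day 3 and 0 at days 7 and 14, where it called 0.201% and 0.014% of all genes. Counts by the other tools are not given for the PIZ. Over all tested genes the shares called were 16.1% higher and 8.61% lower at EZ day 3, 20.6% higher and 11.9% lower at EZ day 7, and 7.12% higher at PIZ day 3, so the 5 of 36 lower at EZ day 7 were near the share of all genes. Ada, which deaminates adenosine to inosine, rose from a mean of 0.252 to 1.90 CPM in the EZ at day 3 (2.89 ± 0.42, adjusted p = 1.36e-06) and was also called at day 7 (2.03 ± 0.41, adjusted p = 7.08e-05), while in the PIZ at day 3 it was at 1.46 ± 0.44 (adjusted p = 0.0134). Pnp, which splits inosine, changed by 1.42 ± 0.22 (adjusted p = 3.6e-06) and 1.84 ± 0.23 (adjusted p = 4.14e-08) in the EZ at days 3 and 7. Ampd3, an AMP deaminase, changed by 1.5 ± 0.21 (adjusted p = 6.02e-07) and 1.76 ± 0.21 (adjusted p = 3.44e-08) at these times, and by 1.45 ± 0.21 (adjusted p = 5.07e-06) in the PIZ at day 3. Ak4, an adenylate kinase of mitochondria, changed by -1.92 ± 0.34 (adjusted p = 2.3e-05) and -1.47 ± 0.34 (adjusted p = 0.000346) in the EZ at days 3 and 7.

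Among the remaining receptors, P2ry12, the ADP receptor of resting microglia, was at a mean of 56.1 CPM after kainate and 67.1 CPM after saline in the EZ at day 3 (-0.26 ± 0.22, adjusted p = 0.344), then rose at day 7 (1.41 ± 0.22, adjusted p = 2.15e-06), and the difference between these effects was itself called (1.67 ± 0.31, adjusted p = 0.00475). That call was lost with the compared groups alone and without mouse 20, 21, 29, 30, 33, 34, 35, 37, 38, 41, 42 or 89. In the PIZ it was already higher at day 3 (0.98 ± 0.22, adjusted p = 0.00137). Adora3, a further adenosine receptor, was at 0.88 ± 0.37 (adjusted p = 0.0463) in the EZ at day 3, 2.63 ± 0.38 (adjusted p = 4.94e-07) at day 7 and 2.12 ± 0.40 (adjusted p = 0.000181) in the PIZ at day 3. P2ry13, a further ADP receptor, changed by 2.22 ± 0.30 (adjusted p = 1.55e-07) and Adora2b, the low-affinity adenosine receptor, by 1.21 ± 0.24 (adjusted p = 6.69e-05) in the EZ at day 7. P2rx6 rose in the PIZ at day 3 (1.88 ± 0.31, adjusted p = 3.85e-05), as did Entpd2, an ectoenzyme that converts ATP to ADP (1.29 ± 0.19, adjusted p = 8.29e-06).

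Genes of release and uptake moved in both directions. Panx2, a pannexin of neurons, fell by 1.65 in the EZ at day 3 and by 1.78 at day 7 on the log2 scale (adjusted p = 0.000215 and 5.76e-05). Panx1, the channel through which ATP leaves cells, stayed under the fold threshold, at 0.4 ± 0.13 (adjusted p = 0.00852) in the EZ and 0.55 ± 0.13 (adjusted p = 0.00131) in the PIZ at day 3. Slc29a1, the main equilibrative nucleoside transporter, rose at day 3 on both sides (0.78 ± 0.17 in the EZ, adjusted p = 0.000377, and 0.93 ± 0.18 in the PIZ, adjusted p = 0.000186) and was at 0.27 ± 0.17 (adjusted p = 0.179) in the EZ at day 7. Slc29a3, a lysosomal nucleoside transporter, changed by 1.93 ± 0.24 (adjusted p = 4.1e-08) in the EZ at day 7, while Slc29a2 fell by 0.64 (adjusted p = 1.37e-05). Entpd3, an ectoenzyme of neurons, fell by 1.67 there (adjusted p = 0.000281).

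**Figure D4:**
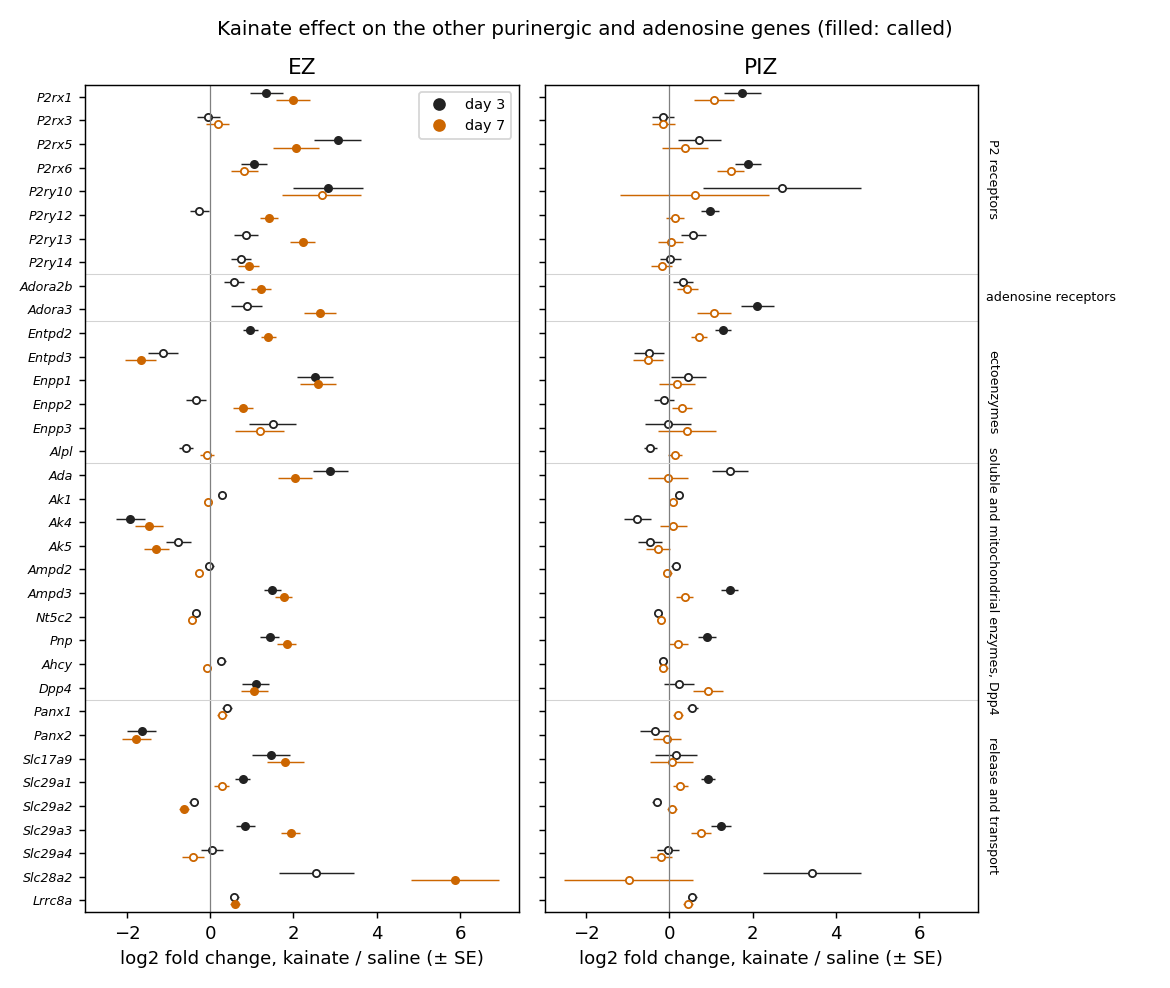
Log2 fold change of kainate over saline, ± SE, at days 3 and 7 for the tested genes of nucleotide and adenosine signaling other than the 10 (1 not shown), by role, in the EZ (left) and the PIZ (right), with filled points for called genes. Filled points lie on both sides of 0 in the EZ at both days, while in the PIZ they are all at day 3 and to the right of 0.

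Markers of several cell types moved with the P2 receptor genes. The 11 microglial markers in the table, among them Csf1r, summed to 1944 to 3451 CPM in the EZ at day 3 and 2339 to 8983 CPM at day 7 after kainate, against 639.1 to 1145 and 551.7 to 619.1 CPM after saline, and none of them was at 0 in any group. In the PIZ they summed to 1324 to 1629 CPM at day 3 after kainate and 366.2 to 499.3 CPM after saline. Across the 48 libraries, log2 P2ry6 followed the mean log2 CPM of these markers with a Pearson r of 0.981, Entpd1 with 0.970, P2rx4 with 0.941 and P2rx7 with 0.927. Every r with a marker list below uses that mean over the tested markers, also where a sum is named. After the group means were removed, r was 0.921, 0.924, 0.882 and 0.783 in the same order, so these genes and the markers also varied together between mice of 1 group. Other lists moved too. The 10 reactive astrocyte markers summed to 2823 to 3860 CPM after kainate and 233.8 to 622.6 CPM after saline in the EZ at day 3, and P2ry6 followed this sum with an r of 0.945, or 0.772 within groups. The 12 leukocyte markers, of which 7 were tested, summed to 24.46 to 76.33 CPM and 12.1 to 17.49 CPM in the same libraries. The 10 markers of endothelial and mural cells of vessels summed to 514.1 to 856.2 CPM after kainate and 411.3 to 456.3 CPM after saline there, and followed P2rx4 with an r of 0.868 (0.852 within groups) and Entpd1 with 0.868 (0.839 within groups). The 6 markers of oligodendrocyte precursors summed to 355.5 to 486.5 CPM and 188.3 to 221.3 CPM in the same order. For the 6 markers of fibroblasts and meninges the sums were 60.83 to 285.3 CPM and 26.75 to 49.84 CPM. The 8 striatal markers summed to 351.6 to 1708 CPM and 78.62 to 90.05 CPM. Of these, Penk had a mean of 727.1 CPM after kainate and 27.85 CPM after saline, and Ppp1r1b 8.497 and 27.47 CPM. P2rx4 followed the sum of the neuronal markers, inversely, more closely than that of the microglial markers, with an r of -0.960, or -0.931 within groups. P2ry1 (0.848) and P2ry2 (0.846) followed the microglial sum less closely, and Nt5e had an r of 0.142. Libraries of 1 mouse and of 1 group share their source, and these r values are descriptions. Adora1 followed the sum of the 10 neuronal markers, led by Camk2a and Snap25, with an r of 0.872, or 0.635 within groups, and the sum of the vascular markers, inversely, with an r of -0.836, or -0.704 within groups. The 8 markers of pyramidal neurons of the CA fields summed to 431.3 to 1069 CPM after kainate and 1113 to 1313 CPM after saline in the EZ at day 3. Adk followed the 10 astrocyte markers, led by Slc1a2 and Gfap, with an r of 0.869, or 0.675 within groups. It followed the microglial markers with an r of 0.827, or 0.582 within groups. In the EZ at day 3 the mean of Slc1a2 was 3550 CPM after saline and 1840 CPM after kainate, while that of Gfap was 2130 and 5168 CPM. In tissue RNA of this kind, fewer cells of a type and less RNA per cell cannot be told apart, and the part of cell numbers in these changes was not tested.

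**Figure D5:**
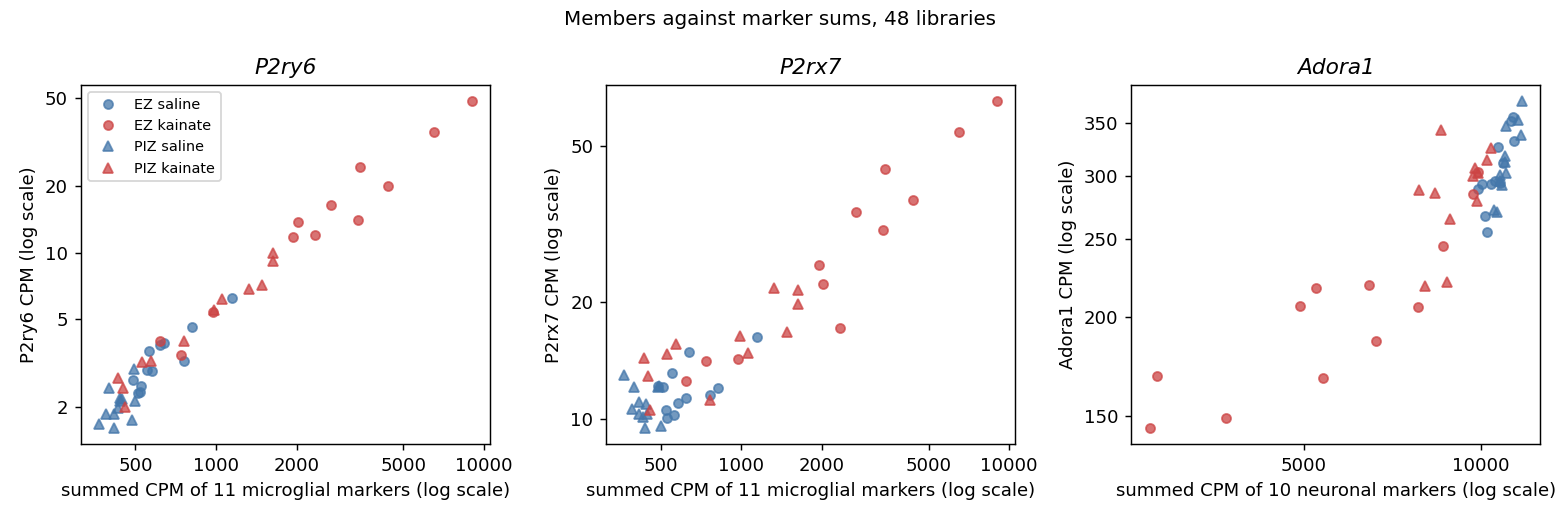
CPM of P2ry6 and P2rx7 against the summed CPM of 11 microglial markers, and of Adora1 against the summed CPM of 10 neuronal markers, in the 48 libraries, all axes on a log scale, with circles for the EZ, triangles for the PIZ, blue for saline and red for kainate. P2ry6 lies along 1 line over all groups, and the highest microglial and the lowest neuronal sums are from kainate libraries of the EZ.

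The genes most like each of the 10 over the 48 libraries, by Pearson r of log2 CPM, were as follows. P2ry6 was nearest to C1qc (r = 0.989) and C1qb (r = 0.988), subunits of complement C1q, the second of which is among the microglial markers. P2rx4 was nearest to Ctsa (0.982), a lysosomal protease, and Pla2g15 (0.982), a lysosomal phospholipase. Entpd1 was nearest to Tcn2 (0.980) and to Inpp5d (0.979), a phosphatase of blood and microglial cells, and P2rx7 to Slc44a2 (0.974) and Rab3il1 (0.974). P2ry1 was nearest to Pgpep1 (0.917) and Gem (0.915), and P2ry2 to Greb1 (0.911) and Cenpx (0.910). Adora1 was nearest to Hs3st4 (0.950) and Trhde (0.942), and Adk to S100a1 (0.900) and Slc1a3 (0.898), a glutamate transporter of astrocytes. The nearest genes of Adora2a, Tmem51 (0.767) and Hmgn2 (0.766), and of Nt5e, Trmt6 (0.631) and Cox6a2 (0.586), were less alike.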

How the data were processed

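The deposited table held raw counts per gene for 48 libraries. The authors prepared stranded poly(A) libraries, trimmed paired reads with fastp 0.20.1, aligned them to GRCm39 with HISAT2 2.2.1 and made the counts with featureCounts (Subread 1.6.4) by strand, with reads that map to more than 1 place counted once at their primary alignment. Gene names came from Gencode M39, which matched 98.9% of the gene identifiers. With edgeR 4.0.16 (R 4.3.3), genes were filtered by filterByExpr over the 12 groups, scaled by TMM and fitted with 12 group means over all 48 libraries, which share 1 estimate of the spread. A call needed a Benjamini-Hochberg adjusted p under 0.01, over the 21390 genes of a comparison, and a fold change over 1.5, the thresholds of the study. CPM used TMM-scaled library sizes, and log2 CPM a prior count of 2. There were 16 comparisons. Alternatives used DESeq2 1.42.0, limma-voom (limma 3.58.1), other scalings, filters and fits, and the omission of each mouse. The edgeR step was tested on simulated data.

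The labels give each library's mouse, and the sides of a mouse were paired by it: deviations from the group means correlated at -0.0536 to 0.376 (median 0.208), over 0.1 in 20 of 24 mice. No pair of libraries held identical counts. Named were the 10 genes, of the 42 others up to 4 in each direction with the smallest p in each kainate comparison and P2ry12, Adora2b, Adora3, Ada, Panx1 and Slc29a1, the 2 most abundant markers of each list used, and the 2 genes most like each of the 10, and 2 genes named by these rules are not reported here. The genes and lists were chosen with earlier results of these data known. Promoters were the 250 bases before the canonical start in Gencode M39.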

Additional observations from a re-analysis of the deposited data

Results flagged for a closer look

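Of 120 groups of 4 libraries examined, 10 held a library far from the other 3, and chance flags about 1 in 20 groups. Mouse 27 accounted for 4 of them: in the EZ at day 14 after kainate it had the highest P2rx4 (30.1 CPM), P2rx7 (36.4 CPM) and Entpd1 (50.5 CPM), and in its PIZ it had the highest Entpd1 (17.0 CPM). Another 3 concerned P2ry1, with mouse 89 highest in the saline EZ at day 7 (2.50 CPM), mouse 38 highest in the kainate PIZ at day 3 (4.08 CPM) and mouse 29 lowest in the saline PIZ at day 3 (0.875 CPM). The others were low values in saline groups: P2rx7 in the PIZ of mouse 33 at day 7 (11.03 CPM), P2ry6 in the PIZ of mouse 18 at day 3 (1.67 CPM) and Adora1 in the EZ of mouse 39 at day 14 (255 CPM).

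The kainate effect differed between the sides at day 7, by the test of the difference itself, for P2rx4 (1.79), P2rx7 (1.61), P2ry6 (1.95) and Entpd1 (1.42), as log2 EZ effect minus PIZ effect. With the mouse as a replicate block, P2ry6 was not called (1.71, adjusted p = 0.0162), and all 4 calls were lost without mouse 20, 21, 35 or 89.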

How the results depend on the processing

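Of 1352 values of single genes recomputed under the alternatives, 1239 kept their side of the threshold, 45 lost a call, 68 gained one and 0 called values reversed, while 34 values that were not called changed sign. P2ry2 dropped out where every library needed 10 counts. The counts of called genes at EZ days 3 and 7 stayed within 1.5 times of 7, at 5 to 7 and 7 to 8 when each mouse was left out. At EZ day 14 the count of 1 became 0 by limma-voom with quality weights and with the compared groups alone (0.271% and 0% of all genes). It was 0 to 1 when each mouse was left out. At PIZ day 3 the count of 1 became 5 at an adjusted p under 0.05, 2 without scaling for composition, 6 by limma-voom, 2 by DESeq2 and 5 with the compared groups alone. The shares of all genes were 13.2%, 9.55%, 13%, 9.51% and 11.8% in that order, against 8.69% in the main fit. At PIZ day 7 limma-voom gave 1 in place of 0 (3.84% of all genes). For the EZ effect minus the PIZ effect at day 7, the count of 4 became 7 at an adjusted p under 0.05, 7 by limma-voom and 1 with the compared groups alone. The shares of all genes were 20.5%, 24% and 5.79% in that order, against 9.89% in the main fit. When each mouse was left out the count was 0 to 6, with 6 without mouse 26 (14.4% of all genes). For day 7 minus day 3 in the EZ, the count of 0 became 3 by limma-voom (5.73% of all genes), 1 by DESeq2 (0.524%) and 0 to 1 on omission. For day 14 minus day 7 it became 4 at an adjusted p under 0.05 (11.1% of all genes), 8 by limma-voom (29.5%) and 1 by DESeq2 (5.6%). On omission it was 0 to 8, with 8 without mouse 27 (18.8%), against 0.271% of all genes in the main fit. The cause was not tested.

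With the replicate block of the mouse, the paired comparisons gave 4 called genes for the sides at day 7 and 0 at days 3 and 14 and in the saline mice. The replicate block changed no other call of the 10 genes. Without scaling for composition the median log2 fold change of all genes moved from 0.03 to 0.16 at EZ day 3 and from 0.02 to 0.11 at PIZ day 3.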

Other observations

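A ratio chosen after the values were seen set each gene's CPM against 1000 CPM of the 11 microglial markers in the same library. In the EZ at day 7, P2ry6 was at 5.04 ± 0.604 after kainate and 5.74 ± 0.648 after saline (SD, n = 4). In the same order, P2rx4 was at 7.71 ± 0.382 and 16.9 ± 1.18, P2rx7 at 8.00 ± 0.863 and 19.8 ± 2.64, Entpd1 at 10.7 ± 2.30 and 25.2 ± 2.32, P2ry1 at 1.32 ± 0.676 and 3.15 ± 0.879, and P2ry2 at 0.666 ± 0.0801 and 1.40 ± 0.420. At day 3, P2ry6 was at 6.50 ± 0.515 and 5.35 ± 0.788, P2rx4 at 9.39 ± 1.12 and 11.8 ± 1.02, P2rx7 at 12.3 ± 0.861 and 16.8 ± 4.32, Entpd1 at 14.3 ± 0.594 and 24.7 ± 3.1, P2ry1 at 1.99 ± 0.705 and 2.68 ± 0.663, and P2ry2 at 1.45 ± 0.0466 and 0.685 ± 0.259. The ratio was not tested and has no share over all genes beside it.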
